A study of Mus musculus with 12 samples.

Results

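Integrins are the receptors by which cells hold on to the matrix around them and to one another, and focal adhesion adaptors are the cytoplasmic proteins that tie integrins to actin. The genes described here are every integrin alpha and beta subunit named in the array's platform annotation, together with 12 adaptor and kinase genes: Tln1, Tln2, Vcl, Pxn, Ilk, Parva, Parvb, Fermt2, Fermt3, Ptk2, Zyx and Lims1. The rule goes by gene name and uses no measured value. The family was, however, chosen with earlier results of these data known, so shares of its genes are a description only. This gave 37 genes of the 24704 named on the array, each with 1 probe set: 18 alpha subunits, 8 beta subunits and 11 adaptors. No probe set carried the symbol Ptk2 in the annotation used here, and that gene was not analysed here.

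Each integrin is a pair of an alpha and a beta subunit, and the pairing sets the ligand. Collagens, laminins, proteins with an RGD motif such as fibronectin and vitronectin, and counter-receptors on other cells are read by different pairs. Talin and kindlin bind the beta tail and switch the receptor on, after which vinculin, paxillin, zyxin and the complex of ILK, PINCH and parvin join it to actin. In the liver sinusoid the endothelium lies on a loose matrix without a continuous basement membrane, and its integrins are known for binding fibronectin, collagen and laminin there.

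Expression was measured on 12 arrays of liver sinusoidal endothelial cells from mice, 6 from Control animals and 6 from animals called NICD-OE-HEC. NICD-OE-HEC mice carry the Clec4g-Cre transgene (tg/wt) and the Rosa26-N1ICD-IRES-GFP allele, so that Cre made under a sinusoidal endothelial gene's regulatory sequence switches on the intracellular domain of Notch1 together with GFP. The labels name the Control genotype only as Ctrl and state no age or sex. Each sample pooled livers of 3 mice, and cells were taken by density gradient and CD146 magnetic beads after collagenase digestion, which acts on the matrix that integrins bind.

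The values are log2 RMA expression, and a difference is always NICD-OE-HEC minus Control on that scale. The median of every array was 3.67, and a mean below it is called low here and treated as near background. Arrays of a group correlated at 0.976 to 0.992. Control 2 (-48.5) and NICD-OE-HEC 4 (-30.3) lay apart from the others on the second principal component (16.4% of the variance). The labelled cell type was borne out by its markers: the values of 8 pan-endothelial genes summed to 81.9 to 83.4 per array in Control and 80.9 to 82.3 in NICD-OE-HEC, and those of 9 sinusoidal genes to 98.7 to 101.7 and 94.9 to 97.0, with 8 of the 9 lower and Lyve1 higher. Of the pan-endothelial genes 3 were called lower (Kdr, -0.60, Tek, -0.59, and Egfl7, -0.36) and 1 higher (Pecam1, 0.33). In bulk samples, fewer cells of a type and less RNA per cell cannot be told apart.

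Integrin genes were higher in NICD-OE-HEC where they changed, and adaptors for the most part did not pass the test. At an adjusted p under 0.05 in limma, 10 of the 37 genes rose (27.0%) and 0 fell, against 10.5% of all 25428 probe sets called, 4.89% higher and 5.59% lower. At an unadjusted p under 0.05, 15 of the 37 were higher and 5 lower, beside 2526 higher and 2993 lower of all 25428 probe sets. Of the 10 that rose, 9 encode subunits (Itga2, Itgam, Itgb3, Itgb5, Itgb2, Itgb4, Itgb8, Itga6 and Itga11) and 1 an adaptor (Zyx). By class, 4 of 18 alpha subunits (22.2%), 5 of 8 beta subunits (62.5%) and 1 of 11 adaptors (9.09%) rose. The median difference was 0.21 for alpha subunits, 0.62 for beta subunits and -0.02 for adaptors, beside -0.01 for all probe sets. With a difference of at least 1 also required, 3 of the 37 rose (Itga2, Itgam and Itgb3), beside 2.09% of all probe sets in either direction. The groups did not overlap for 6 of the 37 genes, all higher, against 6.68% of all probe sets.

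**Figure D1:**
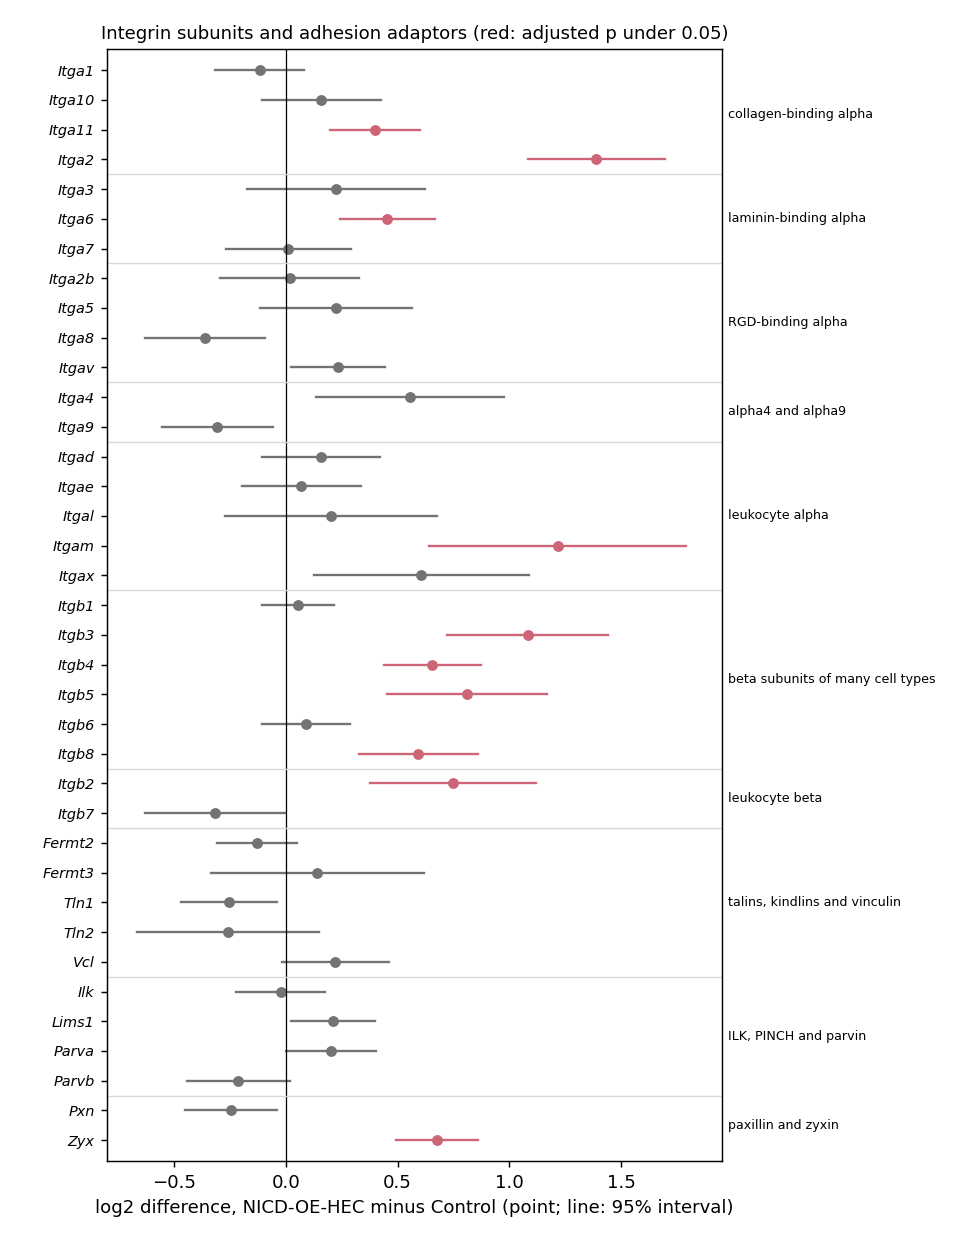
Log2 difference (NICD-OE-HEC minus Control, x axis) of each of the 37 genes with its 95% interval from limma, ordered by role. The 10 called genes are in red and all lie to the right of 0, from 0.40 (Itga11) to 1.39 (Itga2).

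How bright a probe set is bears on how often it is called. Among probe sets whose mean over the 12 arrays was above the array median, 19.0% were called. Both group means were low for 6 genes of the family: Itga7, Itga10, Itga11, Itgad, Itgae and Itgb6. For Itga2, Itgax and Itgb8 the Control mean alone was low, and how large these differences are is therefore less certain.

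**Figure D2:**
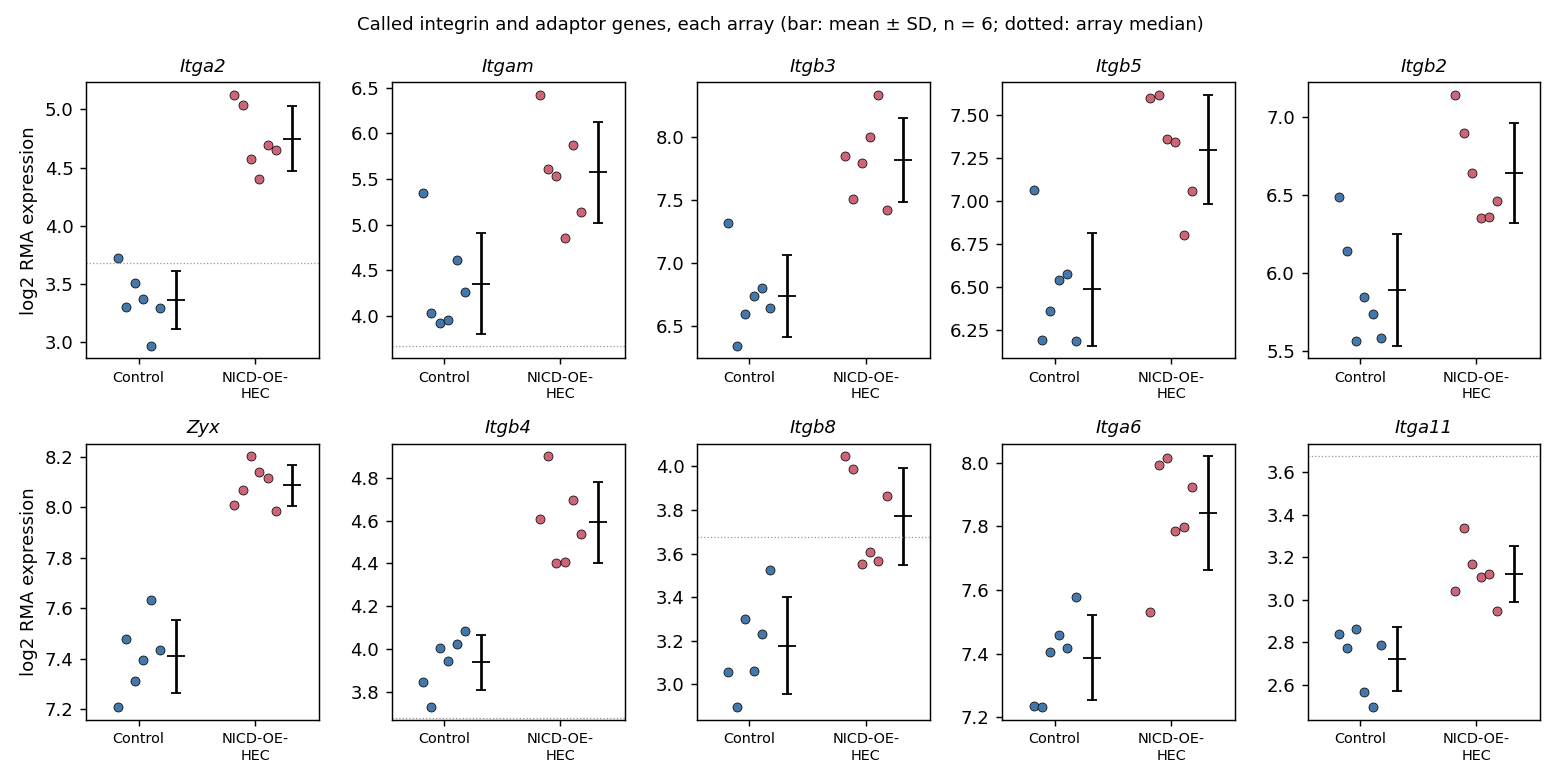
Log2 RMA expression (y axis) of the 10 called genes on each array of the 2 groups, with mean and SD (n = 6) beside the points and the array median as a dotted line in panels that reach near it. The groups do not overlap for Itga2, Itgb3, Zyx, Itgb4, Itgb8 and Itga11, and they overlap for Itgam, Itgb5, Itgb2 and Itga6.

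Among the collagen-binding alpha subunits, Itga2 rose and Itga1 did not pass. Itga2, whose product is a collagen receptor of platelets and epithelia, ran from 2.96 through a median of 3.33 to 3.72 in Control and from 4.40 through 4.67 to 5.13 in NICD-OE-HEC. Every NICD-OE-HEC array stood above every Control array, and the difference was 1.39 (SE 0.14, adjusted p = 9.51e-06), the largest of the 37. Itga1, the collagen receptor that is long known on sinusoidal endothelium, was 9.80 ± 0.09 in Control and 9.68 ± 0.17 in NICD-OE-HEC (SD, n = 6 each; difference -0.12, 95% interval -0.32 to 0.08, adjusted p = 0.542). Itga11, a collagen receptor of fibroblasts, rose by 0.40 (SE 0.09, adjusted p = 0.0114) without overlap, but at low levels in both groups (2.72 and 3.12). Itga10, a cartilage receptor, was low in both (2.36 and 2.52) and gave no call (adjusted p = 0.537).

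Itga2 and Itga1 are next to each other on chromosome 13 in the RefSeq gene order, with no other protein-coding gene listed between them, so their promoters are shown together. Windows of 300 bases (250 before to 50 after the start) come from RefSeq on GRCm38.p6. The set of windows used here held 26 of the 37 genes, in 31 windows, and 6 of the 10 that rose. A gene with several windows counts for a motif if any of them holds it, whereas shares of all windows are per window. The genes without a window are Itga6, Itga7, Itgad, Itgae, Itgal, Itgb2, Itgb3, Itgb4, Parva, Pxn and Tln2. The windows are chr13:114932051-114932350 and chr13:115101915-115102214, both on the minus strand, 5′ to 3′, with GGGCGG (a GC box, the site of SP1) on either strand in capitals.
Itga2: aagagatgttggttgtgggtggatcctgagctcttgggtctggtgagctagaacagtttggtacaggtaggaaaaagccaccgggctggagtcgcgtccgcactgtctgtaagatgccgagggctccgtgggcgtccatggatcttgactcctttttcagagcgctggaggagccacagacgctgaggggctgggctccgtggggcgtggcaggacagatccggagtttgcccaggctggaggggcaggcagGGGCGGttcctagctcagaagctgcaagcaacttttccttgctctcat
Itga1: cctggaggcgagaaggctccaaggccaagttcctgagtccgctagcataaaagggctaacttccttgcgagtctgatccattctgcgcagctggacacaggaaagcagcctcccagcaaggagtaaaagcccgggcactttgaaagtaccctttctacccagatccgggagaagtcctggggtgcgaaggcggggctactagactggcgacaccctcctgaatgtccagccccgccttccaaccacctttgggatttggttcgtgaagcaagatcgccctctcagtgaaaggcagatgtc
The Itga2 window holds 1 GC box and the Itga1 window none, beside 35.7% of all 32851 promoter windows with at least 1. TGGGAA, the core letters read by RBPJ, the DNA-binding partner of the Notch intracellular domain, was searched on both strands too. It stood in 0 of the 6 genes that rose and in 2 of 20 that gave no call (Itga2b and Vcl), beside 25.6% of all windows.

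Markers of biliary epithelium, which expresses Itga2, were higher in NICD-OE-HEC too. The sum over 5 of 6 listed cholangiocyte genes was 19.8 to 21.7 in Control and 23.0 to 25.3 in NICD-OE-HEC, and 4 of the 5 (Sox9, Epcam, Krt19 and Krt7) rose. Krt19, a keratin of bile ducts, was 3.55 in Control, a low level, and 4.39 in NICD-OE-HEC, while Cldn4 differed by 0.28 (adjusted p = 0.0886). Within NICD-OE-HEC the mean of the 5 genes was highest on array 4 (5.06), where Itga2 was lowest (4.40), and was 4.66 on array 1, where Itga2 was highest (5.13). On NICD-OE-HEC 2, with the next highest Itga2 (5.04), the mean was 4.95. Within Control the mean was lowest on array 1 (3.96), where Itga2 was highest (3.72), and highest on array 5 (4.34), where Itga2 was lowest (2.96). These are values of single arrays, and no association was tested. The part of these cells in the rise of Itga2, Itgb4 and Itgb8 was not tested.

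Laminin receptors gave 1 rise among 3 alpha subunits. Itga6, an endothelial laminin receptor, ran from 7.23 through 7.41 to 7.58 in Control and from 7.53 through 7.86 to 8.02 in NICD-OE-HEC. Only NICD-OE-HEC 1 (7.53) fell within the Control range. The difference was 0.45 (SE 0.10, adjusted p = 0.00743), and an exact permutation of the group labels (924 assignments, two-sided) gave p = 0.00433. Itga3 (4.75 ± 0.46 and 4.97 ± 0.24, n = 6 each) and Itga7, which was low in both groups (3.49 and 3.50), gave no call.

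The 4 RGD-binding alpha subunits gave no call in either direction, and at an unadjusted p under 0.05 1 was higher (Itgav) and 1 lower (Itga8). Of all 25428 probe sets 2526 were higher and 2993 lower at that threshold. Itga5, the fibronectin receptor of vessels, ran from 6.89 through 7.59 to 7.86 in Control and from 7.42 through 7.71 to 8.14 in NICD-OE-HEC, so the groups overlapped (difference 0.23, 95% interval -0.11 to 0.56, adjusted p = 0.479, exact permutation p = 0.238). Itgav, the shared partner of Itgb3, Itgb5, Itgb6 and Itgb8, was 6.80 ± 0.12 and 7.03 ± 0.19 (n = 6 each; difference 0.23, adjusted p = 0.175). It passed without NICD-OE-HEC 5, its lowest array of that group at 6.69 (0.30, adjusted p = 0.0458). Itga8, the nephronectin receptor of mesenchyme and stellate cells, was 8.84 ± 0.25 and 8.48 ± 0.19 (difference -0.36, adjusted p = 0.0849). It passed as lower without Control 5 (-0.43, adjusted p = 0.0344) or NICD-OE-HEC 6 (-0.43, adjusted p = 0.0449). Itga2b, the platelet subunit, stayed at 4.18 and 4.20 (adjusted p = 0.972).

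Itga4 and Itga9, which bind VCAM1 and other ligands without an RGD motif, differed in opposite directions without a call. Itga4, a receptor of lymphocytes and other leukocytes, lay at 5.84 to 6.20 on 5 NICD-OE-HEC arrays and at 4.90 on NICD-OE-HEC 5, below every Control array (5.01 to 5.67). Its difference was 0.55 (SE 0.20, adjusted p = 0.0957), and it passed without NICD-OE-HEC 5 (0.74, adjusted p = 0.00219) and with the replicate number as a block (adjusted p = 0.0488). Itga9, a receptor of lymphatic and sinusoidal endothelium, was 9.46 ± 0.22 and 9.15 ± 0.19 (difference -0.31, adjusted p = 0.122), and it passed as lower without Control 2 (-0.38, adjusted p = 0.0283).

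Among the 8 beta subunits, 5 rose and Itgb1 was not among them. Itgb1, the common partner of most alpha subunits, lay between 9.83 and 10.04 in Control and between 9.91 and 10.15 in NICD-OE-HEC (difference 0.05, 95% interval -0.11 to 0.22, adjusted p = 0.770, exact permutation p = 0.279). The groups overlapped, and the interval holds any change between -0.11 and 0.22. Over the 3 exact permutation tests of Itgb1, Itga5 and Itga6, the adjusted p-values were 0.279, 0.279 and 0.0130.

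Itgb3, whose product pairs with that of Itgav on angiogenic endothelium, ran from 6.34 through 6.69 to 7.31 in Control and from 7.42 through 7.82 to 8.34 in NICD-OE-HEC. The groups did not overlap, although Control 1 (7.31) came within reach of NICD-OE-HEC 6 (7.42), and the difference was 1.08, or 2.12-fold on the linear scale (SE 0.17, adjusted p = 4.86e-04). Itgb5, another vitronectin receptor subunit, rose by 0.81 (SE 0.17, adjusted p = 0.00458), from 6.49 ± 0.33 to 7.30 ± 0.32. Here too Control 1 was the highest Control array at 7.07, above NICD-OE-HEC 5 (6.80) and NICD-OE-HEC 6 (7.06). Platelet markers were higher on the same arrays: 6 of 7 listed genes summed to 22.2 to 23.4 in Control and 23.5 to 25.6 in NICD-OE-HEC. Ppbp (1.01) and Pf4 (0.56) rose, while the glycoprotein gene Gp9 (0.31) gave no call, nor did Gp6 (0.17), Gp5 (0.14) and Gp1bb (-0.0017), which were low in both groups. The platelet subunit Itga2b differed by 0.02, and the part of platelets in the Itgb3 rise was not tested.

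Itgb4, the partner of Itga6 in hemidesmosomes and a laminin receptor of arteriolar endothelium, rose from 3.94 ± 0.13 to 4.59 ± 0.19 without overlap (difference 0.66, SE 0.10, adjusted p = 4.42e-04). Itgb8, which pairs with Itgav to release active TGF-beta from its latent form, rose from 3.18 ± 0.22 to 3.77 ± 0.22 (difference 0.59, SE 0.12, adjusted p = 0.00533). Its groups met without overlapping, at 3.53 in Control and 3.55 in NICD-OE-HEC. Itgb6, the epithelial partner of Itgav, was low in both groups (2.24 and 2.33) and gave no call (adjusted p = 0.666).

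The promoter window of Itgb5 (chr16:33829415-33829714, plus strand) is shown because this gene rose at clearly measured levels and its window holds several GC boxes, in capitals.
Itgb5: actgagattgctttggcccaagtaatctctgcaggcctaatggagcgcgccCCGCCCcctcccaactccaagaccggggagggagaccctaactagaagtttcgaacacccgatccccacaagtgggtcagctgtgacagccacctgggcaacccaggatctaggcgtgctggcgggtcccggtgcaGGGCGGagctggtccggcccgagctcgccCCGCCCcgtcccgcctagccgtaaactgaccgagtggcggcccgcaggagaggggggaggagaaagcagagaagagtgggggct
It holds 3 of them, and no TGGGAA. GC boxes stood in 4 of the 6 genes that rose (Itga2, Itgam, Itgb5 and Zyx) and in 10 of the 20 that gave no call.

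Since integrins work as pairs, the change of each alpha subunit was set against that of its partner within the same array. This was done after the values were seen, for the 24 heterodimers known in mammals, with a two-sided exact permutation test over 924 assignments and adjustment over the 24. Neither partner was called in 12 pairs, both were in 2 (Itga6/Itgb4 and Itgam/Itgb2), the alpha subunit alone in 3 and the beta subunit alone in 7. The partners changed unequally in 10 pairs, and in 6 of these the result held with any single array left out: Itga2/Itgb1, Itga11/Itgb1, Itgav/Itgb3, Itgav/Itgb5, Itga2b/Itgb3 and Itgal/Itgb2. The number of unequal pairs was 6 without Control 3 or without Control 4.

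The unequal pairs ran in both senses. Itga2 rose by 1.34 more than Itgb1 (SE 0.16, exact permutation p = 0.00216, the smallest that 924 assignments give, adjusted p = 0.0104), and Itga11 by 0.35 more than Itgb1. Itgb3 rose by more than Itgav (alpha minus beta -0.85, SE 0.22, adjusted p = 0.0104 by exact permutation) and by more than Itga2b (-1.07, SE 0.15). Itgb5 rose by more than Itgav as well (-0.58, SE 0.13, adjusted p = 0.0173 by exact permutation), and Itgb2 by more than Itgal (-0.55, SE 0.12). Itga6 and Itgb4, both called, differed by -0.20 (SE 0.11, exact permutation p = 0.0887, adjusted p = 0.133). A ratio between probe sets shows unequal change of their values and says nothing of how much of each protein was paired.

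**Figure D3:**
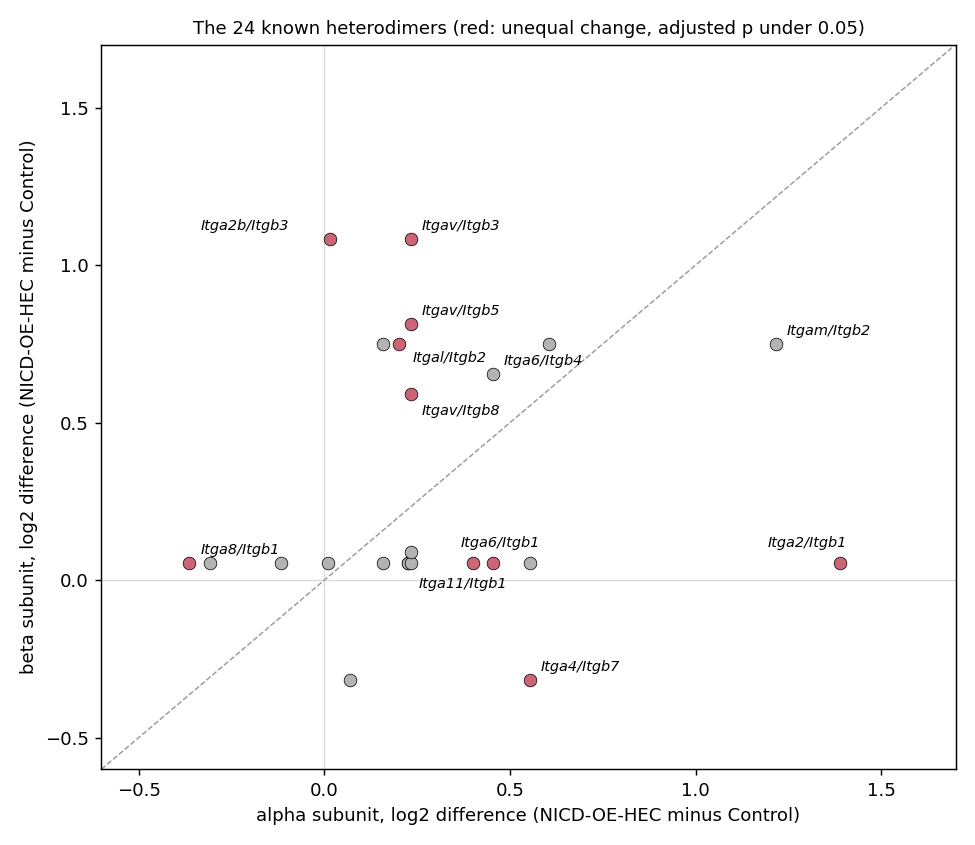
Log2 difference (NICD-OE-HEC minus Control) of the alpha subunit (x axis) against that of the beta subunit (y axis) for the 24 known heterodimers, with equal change on the dashed line. The 10 pairs with unequal change are in red, and pairs with Itgb1 lie along a beta difference of 0.05.

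Leukocyte integrins rose in part, and neutrophil markers were higher in the same group. Itgam, whose product with that of Itgb2 is the complement receptor of neutrophils and macrophages, ran from 3.92 through 4.15 to 5.35 in Control and from 4.86 through 5.57 to 6.42 in NICD-OE-HEC. Control 1 was the highest Control array and NICD-OE-HEC 1 the highest of its group (difference 1.22, SE 0.27, adjusted p = 0.00768). Itgb2, the beta subunit shared by all leukocyte integrins of this class, rose by 0.75 (SE 0.17, adjusted p = 0.0107), from 5.89 ± 0.36 to 6.64 ± 0.32. Control 1 (6.49) again overlapped the other group. Itgax, a receptor of dendritic cells and macrophages, was 3.43 ± 0.47 and 4.04 ± 0.44 (difference 0.60, adjusted p = 0.114).

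The other leukocyte subunits gave no call. Itgal, the LFA-1 subunit of lymphocytes, was 6.47 ± 0.43 and 6.67 ± 0.46 (difference 0.20, adjusted p = 0.696), with 7.30 on Control 1 and 7.41 on NICD-OE-HEC 1. Itgb7, the gut-homing partner of Itga4 and Itgae, was 4.55 ± 0.20 and 4.23 ± 0.33 (difference -0.32, adjusted p = 0.225). Itgae and Itgad were low in both groups.

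Neutrophil markers were higher in NICD-OE-HEC, and within each group their 2 highest means stood on the 2 arrays with the highest Itgam. For Itgb2 this held for array 1 of each group but not for the next highest array. The sum over 10 listed neutrophil genes was 33.5 to 46.1 in Control and 50.9 to 70.5 in NICD-OE-HEC, 8 of the 10 rose, and 1 of them (Elane) was low in both groups. Mcemp1, low in Control, rose by 3.73 and S100a8, a granulocyte alarmin, by 2.93. Their mean was highest on NICD-OE-HEC 1 (7.05) and 5 (6.72), the arrays with the highest Itgam, and among Control arrays on 1 (4.61) and 5 (4.21), likewise. Kupffer cell genes, which also carry Itgam and Itgax, summed to 61.2 to 70.8 and 63.0 to 74.6, with 1 of 8 higher (Marco, 1.49). Itgb2 was highest on NICD-OE-HEC 1 (7.14) and 2 (6.90) and on Control 1 (6.49) and 2 (6.14), the arrays with the highest Kupffer cell means of their group (9.33, 9.01, 8.85 and 8.35). On NICD-OE-HEC 2 the neutrophil mean was the lowest of its group (5.09), and on NICD-OE-HEC 5 Itgb2 was 6.36. The sums over 7 T and NK cell genes (23.7 to 26.0 and 22.0 to 28.1) and over 5 B cell genes (16.9 to 18.5 and 15.7 to 20.8) overlapped, and 0 of those 12 passed in limma, adjusted or at an unadjusted p under 0.05. Over 8 dendritic cell genes the sums were 31.0 to 32.2 and 31.0 to 34.0, with 1 rise (Cd209a, 2.22) and 2 falls (Zbtb46, -0.99, and Clec9a, -0.91). The part of neutrophils and macrophages in the rise of Itgam and Itgb2 was not tested.

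**Figure D4:**
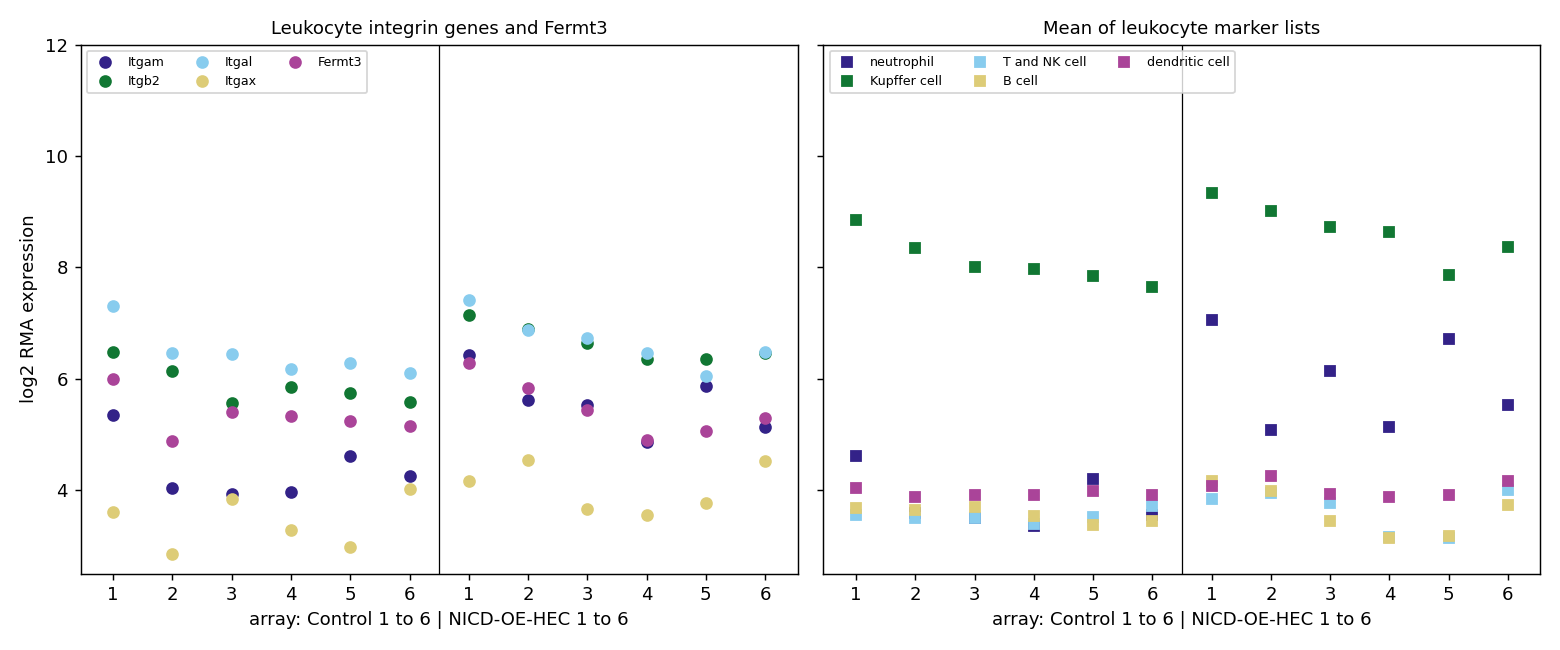
Log2 RMA expression (y axis) on each array (x axis) of 4 leukocyte integrin genes and Fermt3 (left) and the mean of each leukocyte marker list (right). The neutrophil mean lies at 3.35 to 4.61 in Control and at 5.09 to 7.05 in NICD-OE-HEC, and Itgam is highest on array 1 of each group.

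Itgam, Itgax and Itgad follow each other on chromosome 7 with no other protein-coding gene listed between them. The Itgam window (chr7:128062390-128062689, plus strand) is shown with GAGGAA, the core letters of the site of PU.1, a myeloid transcription factor, on either strand in capitals.
Itgam: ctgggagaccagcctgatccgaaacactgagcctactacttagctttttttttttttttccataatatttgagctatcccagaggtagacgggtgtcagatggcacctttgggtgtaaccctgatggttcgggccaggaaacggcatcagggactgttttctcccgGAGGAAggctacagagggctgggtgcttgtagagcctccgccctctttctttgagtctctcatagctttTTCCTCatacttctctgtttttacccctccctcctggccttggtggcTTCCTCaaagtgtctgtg
It holds 3 matches, the most of any member window, whereas the Itgax window holds none. GAGGAA, which ends in the same 4 letters as TGGGAA, stood in 2 of the 6 genes that rose (Itga11 and Itgam) and in 9 of the 20 that gave no call, beside 28.3% of all windows.

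Of the 11 adaptors only Zyx, the zyxin gene, was called (9.09%, beside 10.5% of all probe sets). The median absolute difference of the adaptors was 0.21, beside 0.13 for all probe sets. Zyx, a LIM protein that moves to actin fibres under tension, ran from 7.21 through 7.42 to 7.63 in Control and from 7.98 through 8.09 to 8.20 in NICD-OE-HEC. The groups were far apart relative to their spread, with a difference of 0.68, or 1.60-fold (SE 0.09, adjusted p = 7.75e-05). Immediate early genes, known to respond to tissue dissociation, were also higher there: the sum over 12 was 79.9 to 97.6 in Control and 95.9 to 116.9 in NICD-OE-HEC, and 10 rose. Within NICD-OE-HEC their mean ran from 7.99 on array 1 to 9.74 on array 5, and Zyx was 8.01 and 8.12 on these. Zyx was highest in that group on array 3 (8.20) and lowest on array 6 (7.98), where the mean was 8.84 and 8.70. Within Control the mean ran from 6.66 on array 4 to 8.13 on array 5, where Zyx was 7.40 and 7.63, its highest Control value. Zyx was lowest in Control on array 1 (7.21), where the mean was 7.22. The part of the immediate early genes in the rise of Zyx was not tested.

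The integrin activators and the link to actin gave no call. Tln1, the talin of most cells, was 9.03 ± 0.16 and 8.78 ± 0.16 (difference -0.26, adjusted p = 0.137), and it passed as lower without Control 2, its lowest Control array (-0.32, adjusted p = 0.0405). Tln2 (-0.26), the kindlins Fermt2 (-0.13) and Fermt3 (0.14, the kindlin of blood cells) and vinculin, Vcl (0.22, adjusted p = 0.274), had intervals that reached 0. Paxillin, Pxn, a docking protein of focal adhesions, was 8.33 ± 0.17 and 8.08 ± 0.12 (difference -0.25, adjusted p = 0.138). At an unadjusted p under 0.05, 2 of the 11 adaptors were lower (Tln1 and Pxn) and 3 higher (Zyx, Lims1 and Parva). Of all 25428 probe sets 2993 were lower and 2526 higher at that threshold.

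The complex of ILK, PINCH and parvin was likewise without a call. Ilk, its pseudokinase, was 7.57 ± 0.16 and 7.55 ± 0.11 (difference -0.02, 95% interval -0.22 to 0.18). Lims1, which encodes PINCH, and Parva, the parvin of most tissues, differed by 0.21 and 0.20 (adjusted p = 0.170 and 0.225), and Parvb by -0.21. Taken singly, the 95% intervals of the 4 genes reached at most 0.45 in size. Those of Lims1 (0.022 to 0.401) and Parva (0.0017 to 0.404) lay above 0.

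The Zyx window (chr6:42349578-42349877, plus strand) is shown as that of the adaptor that rose, with GC boxes in capitals.
Zyx: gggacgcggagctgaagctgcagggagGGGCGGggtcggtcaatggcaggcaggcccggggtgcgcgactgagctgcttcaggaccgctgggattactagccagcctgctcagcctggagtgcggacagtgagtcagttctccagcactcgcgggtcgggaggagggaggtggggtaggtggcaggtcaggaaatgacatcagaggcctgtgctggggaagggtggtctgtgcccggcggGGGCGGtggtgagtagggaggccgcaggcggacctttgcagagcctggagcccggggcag
It holds 2 GC boxes. A CArG box, the site of serum response factor, which is known to drive actin adaptors, stood in 0 of the 6 genes that rose and in 3 of the 20 others (Vcl, Fermt2 and Itgb6), beside 1.63% of all windows. Motif matches describe these letters only.

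The wider adhesion complex moved in both directions. Of 52 further genes of the complex listed by name, 48 were measured, 13 rose and 8 fell (43.8% called, median 0.06, beside 10.5% of all probe sets called). Only 2 of the 48 were low in both groups, and among probe sets above the array median 19.0% were called. This list too was chosen with earlier results of these data known, and its share is a description only. Kank1, which links talin to the microtubule cortex, rose by 1.23 (SE 0.14, adjusted p = 2.05e-05), from 5.84 to 7.07. Filamin A, Flna, an actin crosslinker that binds beta tails, rose by 0.98 (SE 0.10, adjusted p = 1.10e-05), and Elmo1, a partner of the Rac activator DOCK, by 0.81. Dab2, an endocytic adaptor for integrins, fell by 0.95 (SE 0.11, adjusted p = 2.52e-05), from 9.96 to 9.02. Among the others called, chosen for mention after their values were seen, the actin crosslinker Actn1 (0.69), the FAK relative Ptk2b (0.71) and Src (0.41) rose, and the Src family kinases Fyn (-0.54) and Yes1 (-0.43) fell. Ptk2b and Parvg (0.64) are also expressed in leukocytes.

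Matrix ligands of integrins rose in large part. Of 40 listed genes 37 were measured, 22 rose and 3 fell (67.6% called, median 0.61, beside 10.5% of all probe sets called). Only 5 of the 37 were low in both groups, and among probe sets above the array median 19.0% were called. The list was chosen with earlier results of these data known, so its share is a description only. The 3 that fell were the elastic fibre gene Emilin1 (-1.45), the laminin chain gene Lama3 (-1.07) and Thbs2 (-0.51), a thrombospondin. Fn1, the fibronectin ligand of Itga5 and Itgav pairs, rose from 5.64 to 7.89 (difference 2.25, SE 0.16, adjusted p = 2.76e-07) while the values of Itga5 gave no call. The collagens Col1a1 (2.49, SE 0.23) and Col3a1 (2.11, SE 0.20), ligands of Itga2 and Itga11 pairs, rose, as did Ccn1 (2.13, SE 0.29), a matricellular ligand of Itgav pairs that also responds early to stress. Col1a1 and Col3a1 are at the same time fibroblast genes. The sum over 9 stellate cell and fibroblast genes was 43.0 to 53.8 in Control and 49.7 to 54.0 in NICD-OE-HEC, with 2 rises (these 2 collagens) and 1 fall (Lrat, -0.75). The others gave no call: Pdgfrb (0.58), Colec11 (0.41), Des (0.23), Dcn (0.19), Hand2 (-0.32) and Reln (-0.59). For 8 mural cell genes the sums were 38.0 to 43.2 and 43.0 to 47.3, with 5 rises (Rgs5, Tagln, Acta2, Notch3 and Myh11). Hepatocytes, which make much of the plasma fibronectin and vitronectin, had 7 of 8 listed genes measured, with sums of 44.2 to 52.7 and 47.5 to 56.7 and 3 rises (Alb, 1.13, Ttr, 0.89, and Apoa1, 0.86). The other hepatocyte genes gave no call and differed in both directions: Fgb (1.03), Cps1 (0.88), Ass1 (-0.69) and Cyp2e1 (-0.33). Vtn, the vitronectin gene, rose by 0.94. The part of these 3 cell types in the rise of the ligands, and of stellate and mural cells in that of Itga11, was not tested.

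Genes listed as ligands on cell surfaces were called in both directions, the only fall being that of Cd47. Of 12 genes 2 rose and 1 fell (25.0% called, median 0.06, beside 10.5% of all probe sets called and 19.0% of those above the array median). Vcam1, the ligand of Itga4 and Itga9 pairs, rose by 1.19 (SE 0.11, adjusted p = 4.22e-06), and Cdh1, an epithelial cadherin that binds the Itgae pair, rose by 1.10 (SE 0.20, adjusted p = 0.00150). Cd47, an integrin-associated protein, fell by 0.47 (SE 0.09, adjusted p = 0.00354). Icam1 (0.53) and Icam2 (0.08), ligands of Itgb2 pairs, gave no call.

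**Figure D5:**
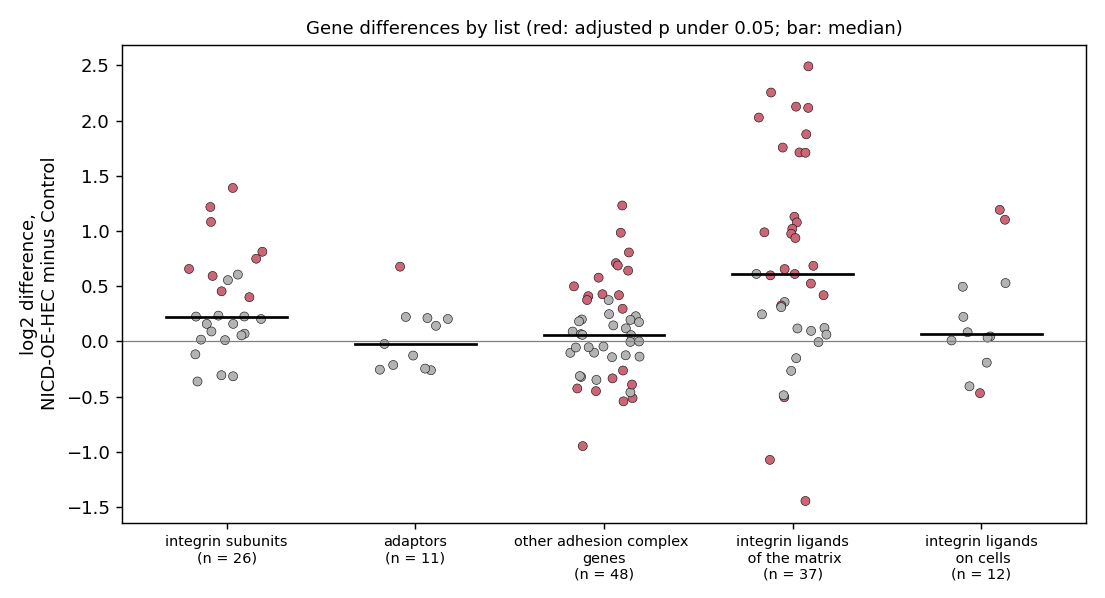
Log2 difference (NICD-OE-HEC minus Control, y axis) of each gene in 5 lists (x axis), with called genes in red and the list median as a bar. The medians are 0.22 for integrin subunits, -0.02 for adaptors, 0.06 for other adhesion complex genes, 0.61 for matrix ligands and 0.06 for ligands on cells.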

How the data were processed

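Expression was measured on 12 Affymetrix arrays of mouse liver sinusoidal endothelial cells (6 Control, 6 NICD-OE-HEC, each a pool from 3 mice). The deposited values are log2 expression made by the authors with RMA, per the submitters' processing notes; the software, chip definition and genome build used are unstated there. RMA equalises the quantiles of arrays, so a shift of most genes would not show. Of 25428 probe sets 24705 had a gene symbol (annotation of 2018), and 24673 of these were found in RefSeq's GRCm38.p6 table. Groups were compared with limma 3.58.1 under R 4.3.3 (a linear model per probe set with moderated variance, no covariates, two-sided, Benjamini-Hochberg over all probe sets, calls at adjusted p under 0.05). SE is limma's moderated standard error for genes. For heterodimers it comes from the SDs of both groups. All genes of the family may be named; of each pathway list the 4 called genes with the largest difference are named, others after their values were seen. The members and lists were chosen with earlier results of these data known. The labels call the samples biological replicates. The test was tried on simulated data first. It recovered 33 of 81 changes of 0.5, 51 of 56 of 1 and 63 of 63 of 2, and 5.16% of its 155 calls were false. A gene without a call is therefore not shown to be unchanged. Alternatives comprised array scaling, filters on dim probe sets, the variance model, array weights, the replicate block, arrays left out and a minimum difference. Same-numbered samples of the groups deviated from their group means with correlations of -0.10 to 0.22, and the numbers were not taken as pairs in the main fit. The number of arrays, 6 per group, limits the precision.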

Additional observations from a re-analysis of the deposited data

Results flagged for a closer look

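On 6 occasions among 96 gene and group combinations, 1 array lay far from the other 5 of its group, where chance gives about 1 in 20. Itga4 was 4.90 on NICD-OE-HEC 5, against 5.84 on the nearest array. Itgal was 7.30 on Control 1, with the next at 6.46. On NICD-OE-HEC 4, Lims1 stood high at 6.17 (next 5.88), Itga7 high at 3.89 (next 3.53) and Tln2 low at 3.40 (next 3.92). Itgb6 was lowest on Control 1 at 2.04 (next 2.23), a low level. None of these 6 genes was called.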

How the results depend on the processing

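The 10 calls among the 37 genes remained called with array centring, a further quantile normalization, the trend and robust model, array weights, the replicate block and every single array left out. Without the dimmest 50 percent of probe sets Itga11 and Itgb8 were not tested, and the other 8 remained. With a minimum absolute difference of 1, the numbers higher were 3 (Itga2, Itgam and Itgb3) of the 37 genes, 1 of the other complex genes, 12 of the matrix ligands and 330 of all probe sets. The numbers lower were then 201 of all probe sets and 0 for both the other complex genes and the ligands on cells, and Itga6 (0.45) was not called. The number of lower genes of the family was 1 with array weights (Itga9). Over single arrays left out it was 0 to 2. Differences near 0 changed sign without a call: with array weights Ilk was 0.0013, Itga2b -0.012 and Itga7 -0.027, and without both arrays that stood apart they were 0.028, -0.040 and -0.10. Over single arrays left out, Ilk ranged from -0.076 to 0.020, Itga2b from -0.093 to 0.074, Itga7 from -0.066 to 0.10 and Fermt3 from -0.021 to 0.27. With the replicate block 11 of the 37 genes were higher (Itga4 added) and 1294 probe sets higher and 1213 lower. Of the 6 same-numbered sets 3 correlated above 0.1, with 0.22 for number 1 and 0.18 for number 5. Numbers 2, 3 and 4 gave -0.07, -0.10 and -0.09. Array 1 had the highest neutrophil mean of both groups (4.61 and 7.05), and array 5 the highest immediate early gene mean (8.13 and 9.74). The cholangiocyte mean was highest on Control 5 (4.34) and NICD-OE-HEC 4 (5.06). Whether same-numbered samples shared a preparation was not tested. Unequal heterodimers, by alternatives chosen after seeing the data, numbered 5 without both arrays that stood apart and 6 to 11 over single arrays left out.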
